A study of Mus musculus with 6 samples.

Results

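The genes described here were those whose signal was higher in replicate 2 than in replicates 1 and 3 in both groups of a mouse embryonic stem (ES) cell experiment. Membership required replicate 2 to lie at least 1 log2 unit, or 2-fold, above the mean of replicates 1 and 3 in the reporter-negative cells and also in the reporter-positive cells. Of 19938 genes measured by a probeset with 1 gene symbol, 193 met this rule, a share of 0.968%. Acta2, Tagln, Cnn1, Myl9, Tpm1, Tpm2 and Fos were left out by the rule and are given only for comparison. The difference between replicate 2 and the mean of replicates 1 and 3 is called the replicate 2 excess below. The members were chosen by this excess in the deposited values of all 6 arrays, so it is given as a description, with no test.

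The study compared ES cells that carried the 2C::tomato reporter after sorting by fluorescence into positive and negative cells, with 3 samples of each. Negative samples 1, 2 and 3 were 2C::tomato- cells and positive samples 1, 2 and 3 were 2C::tomato+ cells, all marked as wild type (WT) in their titles. All were ES cells passaged on gelatin in ES-KOSR medium. The treatment protocol names vehicle or 4OHT, which deletes Kdm1a, a histone demethylase gene, and the titles do not say which agent a WT sample received. In published work the reporter is driven by the promoter of MERVL, an endogenous retrovirus that is active in embryos at the 2-cell stage, so positive cells are those in which that promoter is on. The labels leave unsaid whether the 3 samples of a group were grown as cultures of their own. The spread behind every p-value is therefore that of these 6 samples and may be technical. In a sorted population, fewer cells of a type and less RNA per cell cannot be told apart.

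Each value is an RMA expression value on the log2 scale from 1 Affymetrix whole-transcript array. The medians of the 6 arrays lay between 6.95 and 7.04, and Pearson's r between any 2 arrays over all genes lay between 0.969 and 0.995. Both replicate 2 arrays stood apart, with r between 0.969 and 0.987 to the arrays of other numbers, where arrays numbered 1 and 3 gave 0.992 to 0.995 among themselves. The 2 replicate 2 arrays gave 0.982 with each other. For positive replicate 2 this was its highest r, since it gave 0.969 to 0.977 with the arrays numbered 1 and 3. Negative replicate 2 gave 0.983 to 0.987 with those arrays, so in level it was no closer to positive replicate 2 than to them. The 8 ES cell markers averaged 11.7 to 12.2 on every array, and the lowest of them, Klf4, had a mean of 10.42.

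Several of the members belong to known programmes of cell shape and attachment. Actin filaments that assemble when cells spread release a cofactor that lets serum response factor (SRF) switch on genes of the contractile cytoskeleton, and the coactivator YAP, working with TEAD factors, responds to spreading and tension in a similar way. Keratins 8 and 18 form the intermediate filaments of simple epithelia, which in the mouse embryo first appear in the trophectoderm. ES cells in culture are a mixed population, and the naive pluripotent state is marked by genes such as Zfp42, Klf4 and Esrrb.

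The excess of the members ranged from 1.00 to 3.18 in negative cells, with a median of 1.33, and from 1.00 to 4.23 in positive cells, with a median of 1.34. Over all 19938 genes the median excess was -0.05 in negative cells and -0.04 in positive cells. In 150 of the 193 members the excess of the groups lay within 0.5 of each other. The smaller of each member's excesses was at least 1.5 in 45 members, at least 2 in 11 and at least 2.5 in 4, namely Pmp22, Greb1l, Bgn and Prtg. The excess in positive cells was larger by 1 or more for Bgn, Pramel19, Ceacam2, Septin4 and P4ha2, and the excess in negative cells was larger by 1 or more for Trim67, Lefty1 and Gulp1. Both replicate 2 arrays lay above the other 4 arrays in 192 members, against 17.8% of all genes, a count that the rule largely sets. The exception was Pramel19, described with the comparison of the groups.

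**Figure D1:**
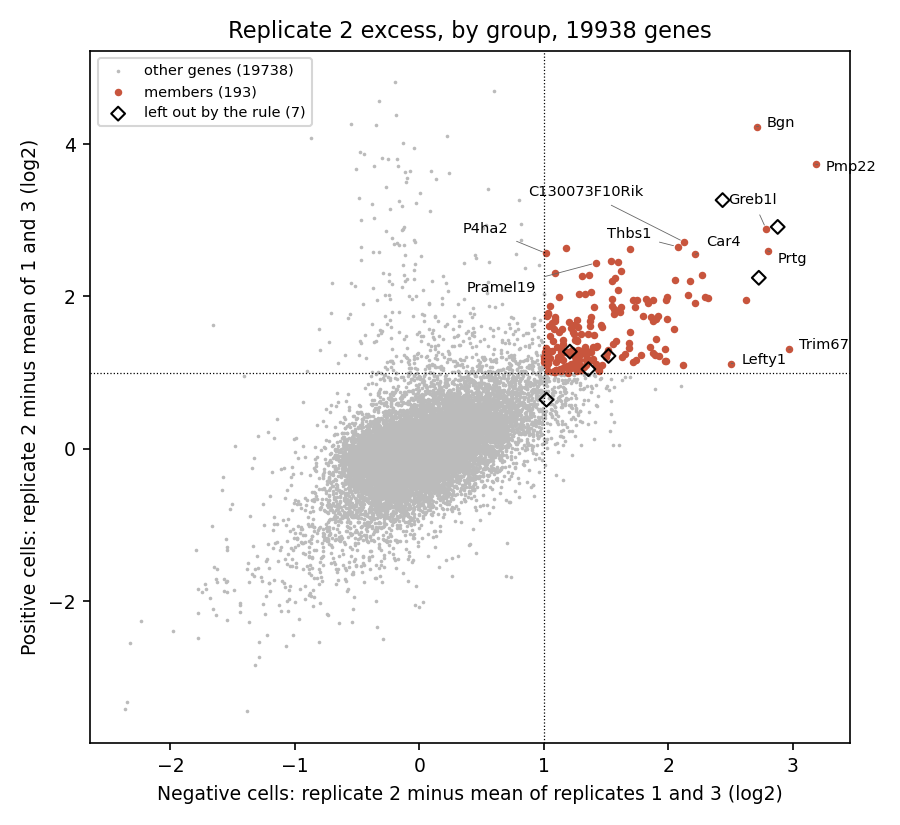
Replicate 2 minus the mean of replicates 1 and 3 in negative cells (horizontal axis, log2) and in positive cells (vertical axis, log2) for 19938 genes, with the 193 members in red, the 7 genes left out by the rule as diamonds and dotted lines at 1. Members fill the corner beyond both lines, Pmp22 and Bgn lie farthest out, and Cnn1 is the 1 diamond outside that corner.

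The same size in the opposite direction was met by fewer genes. Replicate 2 was lower by 1 or more in both groups for 96 genes, or 0.481%. Replicate 1 was higher by that size in both groups for 36 genes and lower for 20, and replicate 3 was higher for 6 and lower for 15. Counted in each group by itself, 398 genes met the size upward in replicate 2 of negative cells and 646 in replicate 2 of positive cells, and both totals hold the 193 members. The members just inside the threshold, by their smaller excess, were Trpc1 (1.00), Arhgef17 (1.00) and Atxn1l (1.00), of which Trpc1 encodes a cation channel and Atxn1l a homologue of ataxin-1. Just outside it were Igfbp2 (0.999), Fabp3 (0.999) and Insl6 (0.994).

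Pmp22, which encodes a membrane protein of myelin and of epithelial junctions, had the largest smaller excess. Its values in replicates 1, 2 and 3 were 9.44, 12.74 and 9.68 in negative cells and 9.25, 12.61 and 8.49 in positive cells. Replicate 2 was thus 9.09-fold and 13.3-fold above the mean of the other replicates. Greb1l, a gene of kidney and inner ear development, read 7.28, 10.39 and 7.92 in negative cells and 7.26, 10.04 and 7.05 in positive cells. Its second probeset also stood higher in replicate 2, by 2.54 and 2.40. Anxa3, a calcium-dependent phospholipid-binding protein, read 8.05, 10.56 and 8.52 in negative cells and 8.0, 10.08 and 7.61 in positive cells. In these 3 genes the replicate 2 arrays of both groups lay above all other arrays, with a gap of more than 1.5. Prnp, the prion protein gene, Vnn1, a pantetheinase of the cell surface, Pdpn, the mucin-like podoplanin, and Mme, the neutral endopeptidase neprilysin, were the other surface proteins with a smaller excess of 1.24 or more. App and Bves, which encode the amyloid precursor protein and a popeye-domain membrane protein, had smaller excesses of 1.13 and 1.12.

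**Figure D2:**
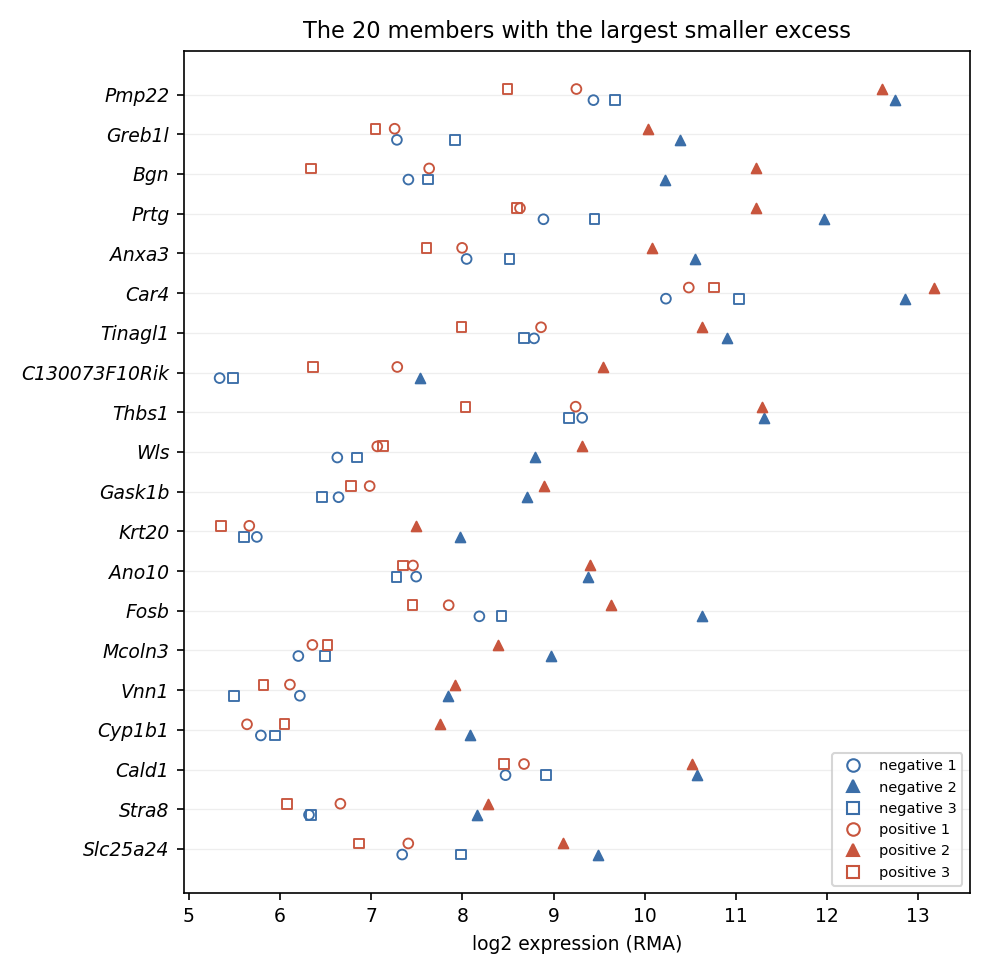
RMA log2 values on each of the 6 arrays for the 20 members with the largest smaller excess, with negative cells in blue, positive cells in red, replicate 2 as filled triangles and replicates 1 and 3 as open circles and squares. Both triangles lie right of the open symbols for every gene, by the least for C130073F10Rik, where negative replicate 2 reads 7.54 and positive replicate 1 reads 7.29.

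Among the genes of the extracellular matrix and its enzymes, 13 members were counted. Bgn encodes biglycan, a small proteoglycan that binds collagen. It read 7.41, 10.22 and 7.62 in replicates 1, 2 and 3 of negative cells and 7.64, 11.22 and 6.34 in positive cells. Its positive excess of 4.23 was the highest of any member, and positive replicate 3 was its lowest array. Thbs1, encoding the adhesive glycoprotein thrombospondin-1, read 9.31, 11.31 and 9.17 in negative cells and 9.24, 11.29 and 8.04 in positive cells. Tinagl1, a matricellular protein of basement membranes, read 8.79, 10.91 and 8.67, and then 8.86, 10.62 and 7.99. For both genes the 2 replicate 2 values lay within 0.3 of each other and above all 4 remaining arrays. Members that make or process collagen were Serpinh1, the collagen chaperone, with excesses of 1.17 in negative and 1.27 in positive cells, Lox, which crosslinks collagen (1.02 and 1.74), and P4ha2, a prolyl hydroxylase subunit (1.02 and 2.56). The remaining matrix genes were Timp2, Efemp1, Serpinf1, Mmp25, Gpc1, Pkdcc and Fbln1, with smaller excesses from 1.08 to 1.40. Of 54 measured genes on a list of matrix proteins and secreted matrix enzymes, 8 were members (14.8%), against 0.968% of all genes. The median excess of that list was 0.17 in negative cells and 0.37 in positive cells. Collagen genes themselves were not among the members: Col1a1 had an excess of -0.09 in negative cells and 0.48 in positive cells, and Col4a1 of -0.06 and 0.58.

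Secreted signals and the proteins that carry them made up 8 members. Wls, the transporter that Wnt proteins need to leave the cell, read 6.63, 8.79 and 6.85 in negative cells and 7.07, 9.31 and 7.13 in positive cells. Igf2, an imprinted fetal growth factor, read 9.45, 11.73 and 10.83 in negative cells and 9.34, 11.78 and 9.32 in positive cells. Wls separated replicate 2 evenly in both groups, whereas negative replicate 3 of Igf2 lay between replicates 1 and 2. Igfbp3 and Igfbp4, which bind insulin-like growth factors, had excesses of 1.62 and 2.34, and of 1.20 and 1.27, in negative and positive cells. Grb10, an adaptor that restrains insulin and IGF receptors and is itself imprinted, had excesses of 1.16 and 1.07. With Sgce, the imprinted epsilon-sarcoglycan gene, Igf2 and Grb10 made 3 members of 22 measured imprinted genes (13.6%), against 0.968% of all genes. The median excess of that list was 0.20 in negative and 0.07 in positive cells.

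Of 30 measured genes on a list of the TGF-beta, BMP and Nodal pathways, 3 were members (10%), against 0.968% of all genes. These were the ligands Bmp7 and Tgfb2 and the Nodal antagonist Lefty1. Bmp7 read 8.13, 10.29 and 8.37 in negative cells and 8.10, 9.74 and 8.23 in positive cells. Lefty1 read 8.61, 10.93 and 8.25 in negative cells and 9.52, 10.28 and 8.81 in positive cells. Its excess was 2.51 in negative cells but 1.12 in positive cells, and positive replicate 1 lay well above the negative replicates 1 and 3. Lefty2, its neighbour in function, was no member, with excesses of 1.55 and 0.05, and neither was Nodal, with 0.22 and 0.09. The median excess of the pathway list was 0.09 in negative and 0.02 in positive cells, near the -0.05 and -0.04 of all genes. Csf1, the macrophage growth factor, had excesses of 1.07 and 1.66. It was the only member on a list of 31 measured interferon, cytokine and MHC genes (3.23%), against 0.968% of all genes. That list did not hold Stat2, a member described below.

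The receptors and surface ligands numbered 17. Prtg (protogenin) and Igdcc3 belong to the same immunoglobulin family of neural and early embryonic receptors. Prtg read 8.89, 11.97 and 9.45 in negative cells and 8.63, 11.22 and 8.60 in positive cells. Igdcc3 read 8.47, 10.28 and 8.49, and then 8.29, 10.08 and 8.40. In each gene the replicate 2 arrays of both groups were separated from the other 4 by more than 1.5. Cntfr, the receptor subunit for ciliary neurotrophic factor, read 9.93, 11.81 and 9.93 in negative cells and 9.43, 10.91 and 9.03 in positive cells. Growth factor receptors among the members were Egfr, with excesses of 1.25 and 1.43, and Pdgfrb, with 1.09 and 1.71. Egfr was the only member on a list of 29 measured FGF and ERK pathway genes (3.45%), against 0.968% of all genes. The list covered ligands, receptors and feedback genes but not Dusp9, a member described below. Fzd2 and Fzd8, receptors for Wnt, had excesses of 1.78 and 1.23, and of 1.03 and 1.15. They were the 2 members on a list of 33 measured Wnt pathway genes (6.06%), which did not hold the member Wls. Npr2, Gprc5c, Adgra2, Colec12, Lrp2, Efnb1, Efna5, Opn3, Ceacam2 and Ptprm completed the group. The second probeset of Gprc5c also had an excess, of 1.37 and 1.94.

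The 21 members of the cytoskeleton and of contact with the matrix included actin-binding and actin-organising genes. Cald1, encoding the actin- and myosin-binding protein caldesmon, read 8.47, 10.58 and 8.92 in negative cells and 8.68, 10.52 and 8.46 in positive cells. Parva, which links integrins to actin, read 8.53, 10.83 and 9.14, and then 8.84, 10.44 and 8.63. In both genes the replicate 2 arrays were the highest of the 6. Flnc (filamin C), Acta1 (skeletal muscle actin) and Des (desmin, a muscle intermediate filament) had smaller excesses of 1.36, 1.07 and 1.03. Others in the group were Phldb2, Kif1a, Epb41l3, Nuak1, Radil, Coro2a, Tubb6, Septin4, Eml1 and Rflnb.

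On a list of SRF targets and contractile genes, 3 of 39 measured genes were members (7.69%), against 0.968% of all genes. These were Cald1, Acta1 and Des, and 5 more genes met the size but were left out by the rule. Of those left out, Acta2 (smooth muscle actin) read 8.91, 11.82 and 9.85 in negative cells and 8.20, 11.21 and 7.70 in positive cells, and Tagln (transgelin) had excesses of 2.88 and 2.91. Myl9, Tpm1 and Tpm2 had smaller excesses of 1.22, 1.21 and 1.05, and Cnn1 fell short with 1.02 and 0.65. The excess was above 0 in both groups for 33 of the 39 genes, a count that holds the members and the genes left out by the rule, where 28.6% of all genes had this. The median of the list was 0.47 in each group. Srf itself had an excess of -0.11 in negative cells and -0.37 in positive cells. On a list of YAP and TEAD targets, 5 of 27 measured genes were members (18.5%): Thbs1, Ankrd1, Igfbp3, Tgfb2 and Arhgef17. Ankrd1, a nuclear and sarcomeric ankyrin-repeat protein, read 6.23, 8.29 and 6.52 in negative cells and 5.80, 7.55 and 5.81 in positive cells. The median excess of the list was 0.60 in negative and 0.45 in positive cells. The widely used targets Ccn1 and Ccn2 were no members, with excesses of 0.89 and 0.82 for Ccn1 and of 0.42 and 0.39 for Ccn2.

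The 250 bases before the start of the gene were searched on both strands for 5 motifs, in the 149 members and 15563 genes with an entry among RefSeq promoters of assembly GRCm38.p6. The CArG box, which SRF binds, was found in 4 members (2.68%) and in 1.46% of all genes. GGAATG, the core that TEAD factors bind, was found in 30 members (20.1%) and 13.2% of all genes. TGANTCA, the letters of an AP-1 site, was found in 12 members (8.05%) and 7.11% of all genes. TGACGTCA, the cyclic AMP response element, was found in 2 members (1.34%) and 2.34% of all genes, and TATAAA in 13 members (8.72%) and 12.5% of all genes. No test was run on these shares. The windows below, each 5′ to 3′ on the gene's own strand, show the 4 members with a CArG box, the 2 matches to GGAATG of the YAP target Ankrd1 and the TGANTCA match of Cald1, with the match in capitals.
Igf2, chr7:142661392-142661451, minus strand, CArG box: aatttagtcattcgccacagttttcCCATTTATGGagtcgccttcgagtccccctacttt
Rnd3, chr2:51149177-51149236, minus strand, CArG box: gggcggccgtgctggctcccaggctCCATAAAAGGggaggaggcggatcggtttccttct
Acta1, chr8:123894814-123894873, minus strand, CArG box: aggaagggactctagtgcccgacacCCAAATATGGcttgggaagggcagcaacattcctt
Eml1, chr12:108370910-108370969, plus strand, CArG box: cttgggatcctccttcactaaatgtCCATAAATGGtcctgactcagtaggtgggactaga
Ankrd1, chr19:36120024-36120079, minus strand, GGAATG: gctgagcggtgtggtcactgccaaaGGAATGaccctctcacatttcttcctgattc
Ankrd1, chr19:36119937-36119992, minus strand, GGAATG: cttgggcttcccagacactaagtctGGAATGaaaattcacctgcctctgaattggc
Cald1, chr6:34709222-34709278, plus strand, TGANTCA: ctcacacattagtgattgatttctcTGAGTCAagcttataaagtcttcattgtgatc
In Acta1 the CArG box began 73 bases before the start of the gene, and in Rnd3 100 bases before it. Among the members on the SRF list, only Acta1 had a CArG box. Cald1 was searched and had none, and Des had no match or no promoter entry. Among the members on the YAP and TEAD list, only Ankrd1 had GGAATG. Tgfb2 was searched and had none, and Thbs1, Igfbp3 and Arhgef17 had no match or no promoter entry. A match describes letters in the reference sequence and is neither a bound site nor a cause of the values above.

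Keratins, junction and polarity genes made up 10 members. Krt8 and Krt18, which encode the keratin pair of simple epithelia, lie next to each other on chromosome 15. Krt8 read 11.25, 13.08 and 12.30 in negative cells and 11.31, 13.44 and 11.03 in positive cells. Krt18 read 10.94, 12.69 and 11.34, and then 11.24, 13.22 and 10.81. Both genes had the larger excess in positive cells, and negative replicate 3 of Krt8 lay about midway between replicates 1 and 2. Krt20, a keratin of differentiated gut epithelium, read 5.75, 7.97 and 5.61 in negative cells and 5.66, 7.50 and 5.35 in positive cells. Krt7, another simple keratin, and the desmosome genes Dsc2 and Dsp had smaller excesses of 1.40, 1.55 and 1.01. The tight junction and polarity genes Cgn, Patj and Amot had smaller excesses of 1.21, 1.17 and 1.20, and Emp2, a relative of Pmp22, had 1.29. Of 48 measured genes of a simple epithelium list, 8 were members (16.7%), against 0.968% of all genes. The median excess over the list was 0.27 in negative and 0.20 in positive cells. Krt19, Cdh1 and Epcam were no members, with excesses of 0.26 and 0.66, of 0.19 and 0.08, and of 0.13 and -0.01. Of 28 measured genes of the trophectoderm, 4 were members (14.3%), namely Krt7, Krt8, Krt18 and the placental homeobox gene Esx1.

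The 16 transcription and RNA regulators covered several classes. Fosb, an immediate-early partner of Jun in AP-1, read 8.19, 10.62 and 8.43 in negative cells and 7.85, 9.63 and 7.45 in positive cells. Jun read 9.54, 10.74 and 9.86, and then 9.55, 10.81 and 9.81. These were the 2 members among 26 measured immediate-early genes (7.69%), against 0.968% of all genes. Fos, left out by the rule, had excesses of 2.73 and 2.25. Egr1 and Junb of the same list were no members: Egr1 had excesses of 0.27 and -0.66, and Junb of -0.04 and -0.42. The median excess of the list was 0.33 in negative and 0.16 in positive cells. Stra8, a gate to meiosis in germ cells, read 6.32, 8.17 and 6.34 in negative cells and 6.66, 8.28 and 6.07 in positive cells. It was the only member on a list of 30 measured germline genes (3.33%), against 0.968% of all genes. Msi1 and Cpeb1, which bind mRNA, had excesses of 1.97 and 1.31, and of 1.89 and 1.24. Vgll3, a cofactor of TEAD factors, had 1.29 and 1.28. The developmental factors Ebf4, Barx1, Tbx15 and Dmbx1, and Setd7, Rbms1, Crtc3 and Zfp36l3, had smaller excesses from 1.00 to 1.26.

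Enzymes of metabolism and of glycans were the largest group, with 24 members. Car4, a carbonic anhydrase anchored to the cell surface, read 10.23, 12.85 and 11.04 in negative cells and 10.48, 13.17 and 10.76 in positive cells. Car2 and Car3, neighbouring carbonic anhydrase genes on chromosome 3, had smaller excesses of 1.33 and 1.27, while Car1 of the same family had excesses of -0.45 and -0.25. Cyp1b1, a cytochrome P450 of steroid and xenobiotic metabolism, read 5.79, 8.08 and 5.94 in negative cells and 5.64, 7.76 and 6.05 in positive cells. In Car4 and Cyp1b1 the 2 replicate 2 arrays were the highest of the 6. Enzymes that build or trim glycans were Chst15, Man2a1, Man1c1, B4galt4, B3gnt5, Galns and Papss2, with smaller excesses from 1.03 to 1.54. Lipid-related members included Plin2 (lipid droplet coat), Acot1, Acss2, Agpat3, Mogat2 and the sphingomyelinase gene Smpd1, from 1.03 to 1.46. Of 22 measured genes of cholesterol and fatty acid synthesis 18 had an excess above 0 in both groups, against 28.6% of all genes, with medians of 0.60 in negative and 0.34 in positive cells. None of the 22 was a member, and at the 0.968% of all genes a list of this size would hold under 1.

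The 11 channels and transporters had a median excess of 1.33 in negative and 1.95 in positive cells. Ano10, of the anoctamin family, read 7.49, 9.37 and 7.28 in negative cells and 7.46, 9.40 and 7.35 in positive cells. Mcoln3, a cation channel of endosomes, read 6.20, 8.97 and 6.49, and then 6.35, 8.39 and 6.52. Slc25a24, a mitochondrial carrier of ATP and phosphate, read 7.34, 9.48 and 7.98, and then 7.41, 9.10 and 6.87. Replicate 2 was highest of each group in all of them, and Ano10 had almost equal values in both groups. Kcnma1, the large-conductance potassium channel, is less certain: its second probeset, at 5.68 to 5.92 on all arrays, had excesses of 0.04 and 0.02. The same held for Dab2, an endocytic adaptor that marks primitive endoderm, whose second probeset lay between 4.19 and 4.38 with excesses of -0.14 and -0.10. Second probesets of Zc3h6 and Homer2 had excesses of 1.43 and 1.82, and of 1.20 and 0.76.

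Intracellular signalling proteins added 14 members. Dusp9, the phosphatase that restrains ERK in ES cells, read 10.32, 12.07 and 10.59 in negative cells and 10.23, 12.12 and 10.28 in positive cells. The remaining members of this group, among them Casp8 (apoptosis), Adcy1 (cyclic AMP synthesis), Ulk2 (autophagy), Stat2 (interferon signalling) and Pde3b (cyclic nucleotide breakdown), had smaller excesses from 1.03 to 1.37. A further 50 members were given no role, among them Gask1b (6.64, 8.71 and 6.46 in negative cells and 6.98, 8.90 and 6.78 in positive cells) and Mtch1, a mitochondrial outer membrane protein, with excesses of 1.12 and 1.21.

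**Figure D3:**
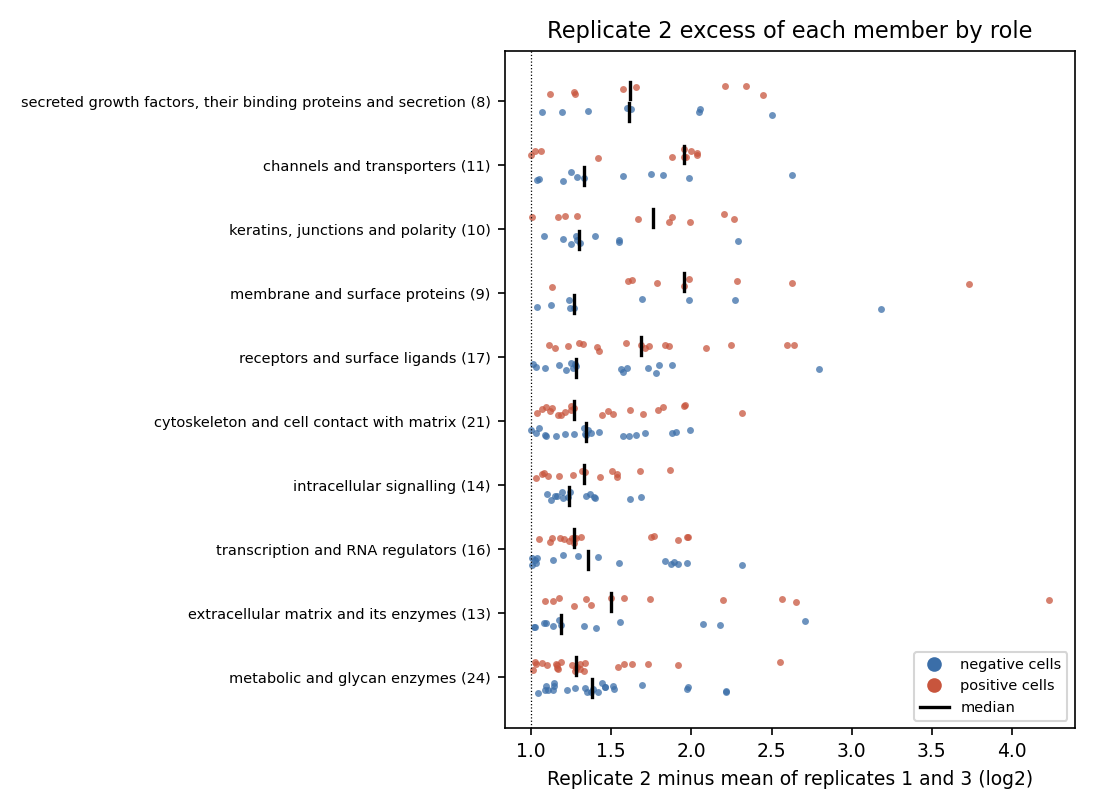
Replicate 2 minus the mean of replicates 1 and 3 (log2) for the 143 members with a role, in negative cells (blue) and positive cells (red), with black bars at the median of each group and a dotted line at 1. Membrane proteins, channels and keratins have medians of 1.76 to 1.95 in positive cells and 1.27 to 1.33 in negative cells, while the cytoskeletal members have 1.27 and 1.35.

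Some members were neighbours in the genome. Apart from the keratin and carbonic anhydrase pairs, no measured gene lay between C130073F10Rik and Pramel19 or between Selenon and Man1c1 on chromosome 4, between Cpeb1 and Ap3b2 on chromosome 7, and between Ldoc1 and 4933402E13Rik or Gm4779 and 8030474K03Rik on chromosome X. Chromosome X held 12 members, or 6.22%, and 3.71% of all genes. The mean probeset value was above the median of all genes, 7.62, in 143 members, against 50% of all genes. Probesets differ in affinity, so this says nothing of transcript amounts.

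The genes of naive and core pluripotency had a median excess of -0.23 in negative and -0.45 in positive cells. In 1 of the 28 measured the excess was above 0 in both groups, against 28.6% of all genes. None was a member, and at the 0.968% of all genes a list of this size would also hold under 1. The 8 ES cell markers averaged 12.2, 11.9 and 12.2 in replicates 1, 2 and 3 of negative cells and 12.1, 11.7 and 12.1 in positive cells. Zfp42 read 11.21, 10.43 and 11.01 in negative cells and 11.19, 10.24 and 11.10 in positive cells. Nanog read 12.94, 12.73 and 12.75, and then 12.92, 12.98 and 12.54. Zfp42 was thus lowest in replicate 2 of both groups, and Nanog was not. The 22 measured 2-cell-stage genes had a median excess of -0.15 in negative cells and 3.47 in positive cells, so that set stood high in replicate 2 of the positive cells and not of the negative cells. The part of these shifts in the members' values was not tested.

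Markers of other cell types were averaged over every measured marker, members and genes left out by the rule included. The 7 smooth muscle markers averaged 7.46, 8.70 and 7.72 in replicates 1, 2 and 3 of negative cells and 7.31, 8.35 and 7.08 in positive cells. These means hold the member Des and the left-out Acta2, Tagln and Cnn1, so the rule largely sets their height in replicate 2. The other 3 markers averaged 6.18, 6.30 and 6.14 in negative cells and 6.04, 6.13 and 6.09 in positive cells. Acta2, Tagln and Des met the size, and Cnn1 (calponin) had excesses of 1.02 and 0.65. Myocd, the coactivator that drives the smooth muscle programme, had excesses of 0.23 and 0.21, Actg2 (enteric smooth muscle actin) 0.47 and 0.00, and Myh11 (smooth muscle myosin) -0.28 and -0.03. The 7 trophectoderm markers averaged 7.69, 8.16 and 7.77, and then 7.73, 8.30 and 7.51, means that hold the members Krt7 and Esx1. The other 5 averaged 7.59, 7.56 and 7.53 in negative cells and 7.70, 7.77 and 7.49 in positive cells. Without the members, replicate 2 was thus highest in positive cells and not in negative cells. Krt7 and Esx1 were members, Gata3, Eomes and Cdx2 had excesses of 0.77 and 0.35, of 0.30 and 0.55, and of 0.13 and 0.23, and Elf5 had -0.56 and -0.45. The 10 fibroblast markers averaged 6.5, 6.47 and 6.47 in negative cells and 6.29, 6.57 and 6.25 in positive cells, highest in replicate 2 of the positive cells. The excess was above 0 in both groups for 3 of them, namely the member Pdgfrb, Col1a2 (0.26 and 0.58) and Postn (0.25 and 0.69), and below 0 in both for Col3a1, Dcn and Fap. The 9 primitive endoderm markers averaged 7.72, 7.34 and 7.55, and then 7.3, 7.31 and 7.07, with Dab2 as a member, Gata4 at 0.45 and 0.97, and Sox7 and Lama1 lower in replicate 2, with excesses of -1.17 and -0.99, and of -1.14 and -1.23. None of the markers measured for mesoderm (5), endothelium and blood (6) or neural cells (5) met the size, and Foxf1, a mesoderm marker, came nearest with 0.57 and 0.71. The part of other cell types in the members' values was not tested.

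**Figure D4:**
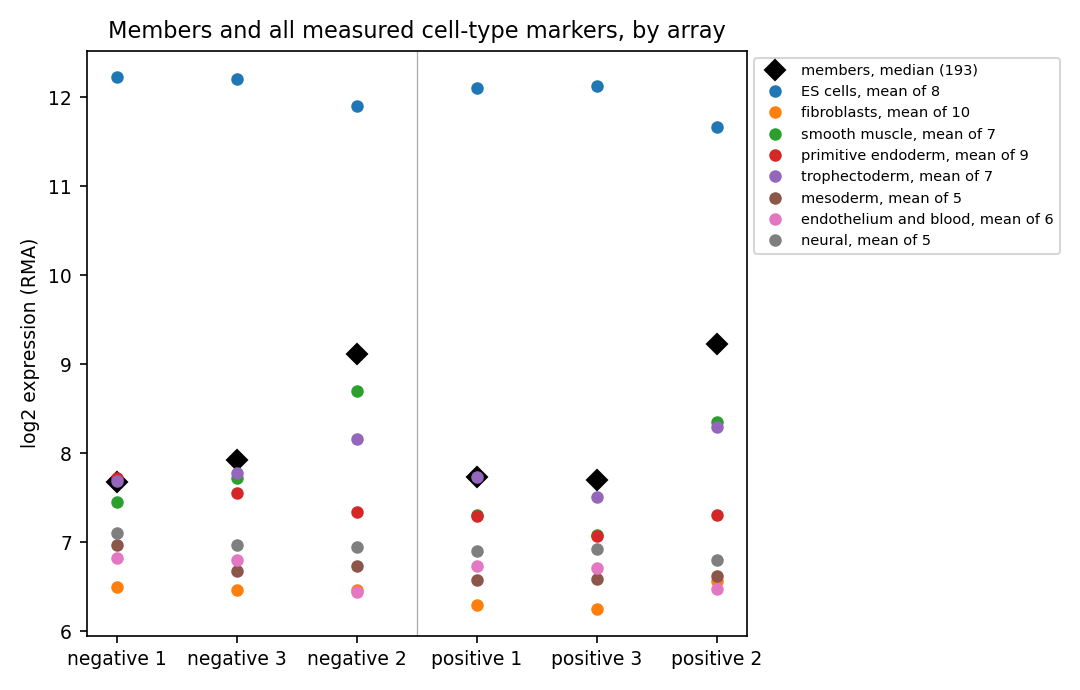
Median RMA log2 value of the 193 members (black diamonds) and mean value of all measured markers of each cell type, members included (coloured points) on each array, with replicate 2 drawn last in each group. The median of the members is 9.12 and 9.22 on the replicate 2 arrays, where the rule sets it high, and 7.67 to 7.92 on the other 4. Smooth muscle and trophectoderm means, which hold members or genes left out by the rule, are highest on replicate 2 in each group. Without those genes, the trophectoderm mean is not highest on replicate 2 of negative cells. ES cell markers are lowest on replicate 2 in each group.

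Replicates 1 and 3 entered the rule only through their mean, so the difference between them was not used. In negative cells, replicate 1 was below replicate 3 in 140 of the 193 members (72.5%) and in 43.8% of all genes, with a median difference of -0.16 in the members and 0.03 over all genes. In positive cells, replicate 1 was above replicate 3 in 129 members (66.8%) and in 50.1% of all genes, with medians of 0.11 and 0.00. Negative replicate 1 and positive replicate 3 were each the lowest array in 66 members (34.2%), against 13.7% and 12.2% of all genes. Positive replicate 1 was lowest in 36 members (18.7%) and 13.3% of all genes, and negative replicate 3 in 25 members and 12.2% of all genes. The rule keeps both replicate 2 arrays from being the lowest of a member, whereas they were lowest in 16.5% (negative) and 32.1% (positive) of all genes, so the members' shares are divided over fewer arrays. Igf2 and Krt8 were examples in negative cells, with replicate 1 below replicate 3 by 1.38 and 1.05, and Bgn and Thbs1 in positive cells, with replicate 1 above replicate 3 by 1.29 and 1.21. Each of these comparisons sets 1 array against another, so they are descriptions with no test.

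The comparison that the study was designed for, positive against negative cells, did not enter the rule and could be tested. With limma and Benjamini-Hochberg adjustment over 19938 genes, 0 of the 193 members and 0% of all genes passed an adjusted p of 0.05. The smallest adjusted p was 0.910, for members as for all genes. At an unadjusted p under 0.05, limma called 1 member and 4.4% of all genes. The rule itself widens the members' spread within a group, and the median standard error (SE) of their difference was 0.52, against 0.15 over all genes. In a fit that took the replicate number as a block, the median SE of the members was 0.12 and still 0 genes passed, with a smallest adjusted p of 0.374 among members. At an unadjusted p under 0.05 that fit called 29 members higher in positive cells, where it called 5.4% of all genes, and 35 lower, where it called 6.61%.

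The mean was higher in positive cells in 88 members (45.6%) and in 39.8% of all genes, with a median difference of -0.06 in the members and -0.04 over all genes. This count depends on single arrays. It was 34 without negative replicate 1, 183 without negative replicate 2, 45 without negative replicate 3, 136 without positive replicate 1, 12 without positive replicate 2 and 145 without positive replicate 3. Within pairs of the same replicate number, the members had median differences of 0.08 for pair 1, 0.00 for pair 2 and -0.17 for pair 3. All 3 pairs were higher in positive cells in 44 members (22.8%), against 15.1% of all genes, and lower in 56 (29.0%), against 23.7%. The groups did not overlap in 1 member, which was higher in positive cells, against 4.08% of all genes, and in 0 members that were lower, against 7.15%. The rule makes such separation rare, since replicates 1 and 3 of 1 group would have to exceed replicate 2 of the other. These shares therefore do not compare members with all genes. A difference of at least 2-fold was met upward by 3 members, against 0.512% of all genes, and downward by 0, against 0.015%. These 3 were Pramel19, C130073F10Rik and P4ha2.

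Pramel19, formerly Gm12794 and of the leucine-rich Pramel family, is the only member on a list of 22 measured 2-cell-stage genes (4.55%), against 0.968% of all genes. Of those 22 genes, 21 had a higher mean in positive cells. Pramel19 read 5.08, 6.87 and 5.82 in negative cells and 8.49, 10.49 and 7.61 in positive cells. The lowest positive array lay above the highest negative array, and replicate 2 was highest in each group. The mean difference was 2.94 with an SE of 0.76, or 7.66-fold, and limma gave an adjusted p of 0.910. With the replicate block the SE was 0.35 and limma's adjusted p was 0.374. The family has near-identical copies, and probes for 1 copy may also capture others, so the value is uncertain as that of a single gene. Its neighbour C130073F10Rik read 5.34, 7.54 and 5.48 in negative cells and 7.29, 9.54 and 6.36 in positive cells. Its groups overlapped, since negative replicate 2 exceeded positive replicates 1 and 3, yet every pair was higher in positive cells, by 1.95, 2.00 and 0.88. P4ha2 read 7.55, 8.42 and 7.25 in negative cells and 8.22, 10.49 and 7.63 in positive cells, with pair 2 far above the others. Prnp read 6.26, 8.22 and 6.80, and then 6.99, 9.64 and 7.04, a mean difference of 0.80 (SE 0.80, or 0.22 with the replicate block) that became -0.080 without positive replicate 2.

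The members with the largest lower means in positive cells among those lower in all 3 pairs were Trim67, Fosb, Cntfr and Igfbp4. Igfbp4 read 8.04, 9.43 and 8.43 in negative cells and 7.25, 8.76 and 7.72 in positive cells. Its pairs fell close together, at -0.79, -0.67 and -0.71. Trim67, a ubiquitin ligase of the tripartite motif family, read 7.08, 10.13 and 7.25, and then 6.96, 8.22 and 6.86. Most of its mean difference of -0.81 lay in pair 2, at -1.91, and without negative replicate 2 it was 0.18. Fosb and Cntfr had mean differences of -0.77 each, with SE of 0.78 and 0.65, or 0.15 and 0.12 with the replicate block. The difference of Fosb was 0.0026 without negative replicate 2. Limma's adjusted p was at least 0.910 for all of these genes, and at least 0.374 with the block.

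**Figure D5:**
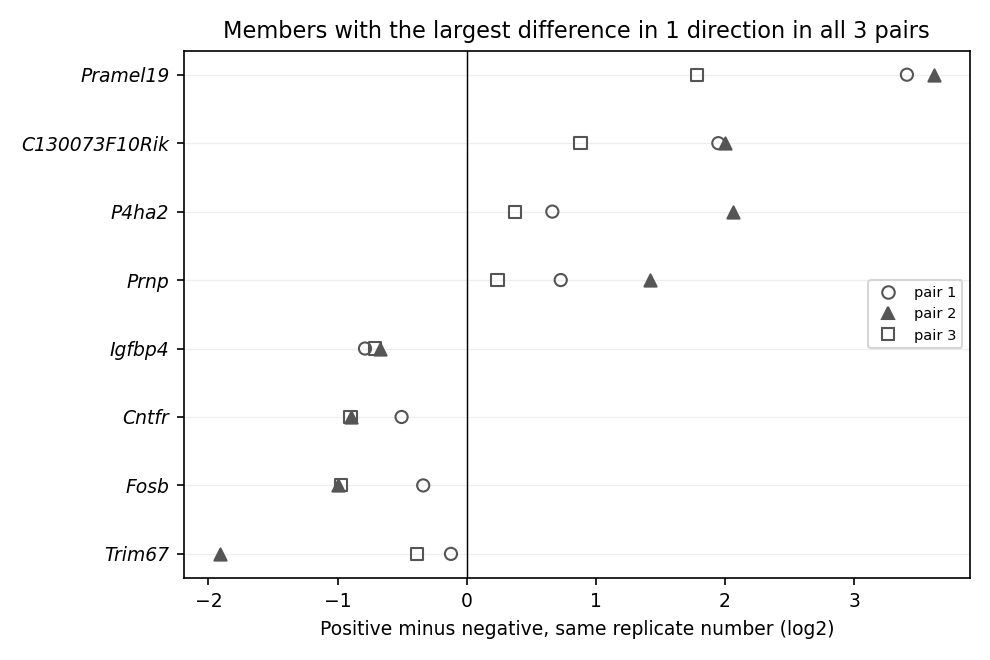
Positive minus negative log2 difference within each pair of the same replicate number (circle for 1, filled triangle for 2, square for 3) for the 4 members with the largest differences in each direction among those with all 3 pairs on 1 side of 0. Igfbp4 has 3 nearly equal pairs from -0.79 to -0.67, whereas Trim67 and P4ha2 owe most of their difference to pair 2.

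Because replicate 2 chose the members, the groups were also compared on replicates 1 and 3 alone, an alternative added after the data were seen. With the replicate number as a block, limma then called 187 genes (0.938%) at an adjusted p of 0.05, of which 6 were members. Without the block it called 0 genes. At an unadjusted p under 0.05 that fit called 2952 of the 19938 genes and 47 of the 193 members. Higher in positive cells in the blocked fit were 3 members, against 0.642% of all genes: Pramel19 by 2.60 (SE 0.32, adjusted p 0.0393 by limma), C130073F10Rik by 1.42 (SE 0.22, 0.0461) and Lefty1 by 0.74 (SE 0.11, 0.0456). Lower in positive cells were 3 members, against 0.296% of all genes: Dsc2 with -0.78 (SE 0.11, limma adjusted p 0.0443), Igfbp4 with -0.75 (SE 0.09, 0.0393) and Csf1 with -0.66 (SE 0.09, 0.0447). Lefty1 went the other way in pair 2, at -0.65, and Csf1 was nearly level there, at -0.07, while the other 4 kept their direction. This fit rests on 4 arrays, so its SEs lean largely on the spread that limma shares over all genes and are not each gene's own precision. None of the 6 passed when pair 2 was included.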

How the data were processed

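The authors deposited log2 expression values, 1 column per sample, which had been made with RMA in Affymetrix Expression Console per the submitters' processing notes. RMA corrects background, equalises the quantiles of the arrays and summarises probes, so dim genes are drawn together and differences in total RNA are lost. Software versions and a genome build were not given in the sources used here. Per the labels' protocols, 100 ng of total RNA was labelled for each sample. Groups and replicate numbers came from the titles.

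Symbols came from GEO's platform annotation. Of 35556 probesets, 21789 had 1 symbol, 1621 had several and 12146 were not listed. Where a gene had more than 1 probeset (999 genes), that with the highest mean over 6 arrays stood for it, which gave 19938 genes, with no filter on low values. All 193 members matched RefSeq GRCm38.p6 by gene identifier, and 149 had a promoter entry. The members and gene lists were chosen with earlier results of these data known, and the 10 roles were assigned after the values were seen. Named by rule were the 20 members with the largest smaller excess, up to 5 per list, those nearest the threshold, the 4 with the highest mean value, those without overlap between the groups and the gene whose probesets differed most. Other members were named after their values were seen.

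The test of positive against negative cells used limma's lmFit and eBayes (version 3.58.1, R 4.3.3), two-sided, with Benjamini-Hochberg adjustment over 19938 genes. The procedure was also run on simulated arrays drawn independently of each other. That run could not check it where arrays of the same number share deviations, as they did here. Replicate numbers were checked for pairing: arrays of the same number shared deviations from their group means, with r over all genes of 0.546, 0.553 and 0.457 for numbers 1, 2 and 3, and of 0.514, 0.500 and 0.419 without the members. The main fit had no block, since no label states one, so its SE also holds these shared deviations. The fit with the replicate block took the numbers to pair the samples. The labels do not say what a number marks. Alternatives were median centring, a further quantile normalization, other probeset and size rules, the dimmest 30% left out, array weights, a trended robust prior, the replicate block, each array left out, and both replicate 2 arrays left out. Precision is limited by the number of arrays.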

Additional observations from a re-analysis of the deposited data

How the results depend on the processing

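The number of genes that met the rule was 239 after median centring (193 shared), 175 after a further quantile normalization (169 shared) and 185 without the dimmest 30%, and 175 to 215 when 1 array of replicate 1 or 3 was left out. It was 391 with a size of 0.8, 45 with a size of 1.5, and 124 when replicate 2 had to exceed the higher of replicates 1 and 3 by 1. Leaving out replicate 2 of a group gives the rule no value. Limma called 0 genes and 0 members with each scaling, probeset choice, filter on dim genes, array weighting and prior tried, and 0 to 0 with each array left out. The replicate block called 0 genes and 0 members, so it changed no call. In this balanced design the block cannot alter a mean difference, so the 88 members higher in positive cells stayed 88 by construction. With the block and without both replicate 2 arrays, an alternative chosen after the data were seen, limma called 187 genes and 6 members. The count of members higher in positive cells was 12 to 183 with single arrays left out, and 78 to 88 under those other settings. With single arrays left out, the difference of Pramel19 was 2.12 to 3.57, of C130073F10Rik 0.71 to 2.32, of P4ha2 0.18 to 1.61, of Igfbp4 -1.15 to -0.32 and of Cntfr -1.33 to -0.14. Prnp ran from -0.080 to 1.36, Trim67 from -1.34 to 0.18 and Fosb from -1.43 to 0.0026, each reversed in sign by 1 array: Prnp without positive replicate 2 (-0.080), and Trim67 (0.18) and Fosb (0.0026) without negative replicate 2. Where a lone alternative moved a count, the cause was not tested, apart from the size rules, which change the count by construction.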

Other observations

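Outside the 19938 genes, the same size was met by 12 of 1621 probesets that carry several symbols (0.740%) and by 28 of 12146 unlisted probesets (0.231%). A probeset shared by Gbp2 and Gbp2b, which encode interferon-induced guanylate-binding proteins, read 6.0, 7.87 and 5.73 in replicates 1, 2 and 3 of negative cells and 6.11, 7.90 and 5.69 in positive cells. Replicate 2 was 2.00 and 2.01 above the mean of the other replicates, nearly the same in both groups. A probeset shared by H2-Q6 and H2-Q8, genes of the class I histocompatibility region, had excesses of 1.08 and 1.17. A probeset shared by Duxbl1 and Duxbl2, double homeobox genes, read 7.21, 8.68 and 7.69 in negative cells and 9.31, 11.61 and 8.60 in positive cells. Replicate 2 was highest in each group there, and in each pair the positive array lay above the negative array. Near-identical copies share such probesets, so no single gene can be named from them.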
